A study of Homo sapiens with 5 samples.

Results

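The genes described are 9 that act in antigen presentation by MHC class I, the route by which a cell shows fragments of its own proteins to cytotoxic T cells. They are HLA-B, HLA-C, HLA-E, HLA-F, B2M, TAP1, TAP2, TAPBP and NLRC5, matched by RefSeq identifier to entries on the primary chromosomes in a table of 20220 usable gene entries; 8 of the 9 had an entry, and TAP1 had none of its own. RNA came from HEK 293T, an established line derived from human embryonic kidney, in which SV40 large T antigen is also expressed. The groups were 2 libraries from cells given 1 µM 5-aza-2'-deoxycytidine (5-aza-CdR, decitabine) for 3 days, 1 library from cells exposed in the same way and then cultured drug-free for 30 days (recovery), and 2 libraries from control cells grown without drug. 5-aza-CdR is a cytidine analogue that inhibits DNA methylation. Expression was deposited as 1 FPKM value per gene and group, a fragment number divided by transcript length and by the mapped total, so no spread between libraries is shown, and single genes are tested here only by q-values that the authors computed against control.

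A class I molecule is a heavy chain paired with beta-2-microglobulin and loaded in the endoplasmic reticulum with a peptide cut by the proteasome. HLA-B and HLA-C encode classical heavy chains, HLA-E and HLA-F non-classical ones, and B2M the shared light chain. TAP1 and TAP2 form the transporter that brings peptides into the reticulum, and TAPBP encodes tapasin, which bridges the transporter and the heavy chain during loading. NLRC5 is a transactivator of class I genes; it has no DNA-binding domain of its own and acts through the RFX complex and its partners on a promoter module of S, X and Y boxes. Interferons raise most of these genes, and promoter methylation is a known way in which tumours lose class I.

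The promoters are shown because class I genes are known to share response elements there. RefSeq windows (GRCh38.p14) were found for 7 of the 9 genes, not for HLA-E and NLRC5. The 250 bases before the annotated start are shown for the genes with an X2 and a Y core in sequence (HLA-B, HLA-C and B2M), for HLA-F as a further heavy chain, and for TAPBP, the member furthest from control in both comparisons. Capitals mark matches, on either strand, to an NF-kB type motif (GGG, 2 bases of any kind, TT, 1 base of any kind, CC), to the interferon response type repeat (GAAA, 2 bases of any kind, GAAA), TGACG (core of the X2 box) and ATTGG (the inverted CCAAT core of the Y box); matches that overlap run together.
HLA-B, chr6:31357180-31357429, minus strand: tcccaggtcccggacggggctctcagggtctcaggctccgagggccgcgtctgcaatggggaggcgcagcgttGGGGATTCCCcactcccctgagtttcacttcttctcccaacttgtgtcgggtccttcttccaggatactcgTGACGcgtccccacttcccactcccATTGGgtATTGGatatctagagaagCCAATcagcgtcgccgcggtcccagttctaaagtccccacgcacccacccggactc
HLA-C, chr6:31272093-31272342, minus strand: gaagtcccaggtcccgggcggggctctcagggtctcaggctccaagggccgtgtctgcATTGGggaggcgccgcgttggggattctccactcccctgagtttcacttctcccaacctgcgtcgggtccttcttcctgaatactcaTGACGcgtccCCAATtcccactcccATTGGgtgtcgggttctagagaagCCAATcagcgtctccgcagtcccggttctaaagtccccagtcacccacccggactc
HLA-F, chr6:29723184-29723433, plus strand: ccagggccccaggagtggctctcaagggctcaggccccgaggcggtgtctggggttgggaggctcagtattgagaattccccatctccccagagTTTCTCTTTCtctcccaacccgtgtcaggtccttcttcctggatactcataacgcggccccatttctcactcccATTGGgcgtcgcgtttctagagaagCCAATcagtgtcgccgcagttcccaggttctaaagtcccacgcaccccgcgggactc
B2M, chr15:44711267-44711516, plus strand: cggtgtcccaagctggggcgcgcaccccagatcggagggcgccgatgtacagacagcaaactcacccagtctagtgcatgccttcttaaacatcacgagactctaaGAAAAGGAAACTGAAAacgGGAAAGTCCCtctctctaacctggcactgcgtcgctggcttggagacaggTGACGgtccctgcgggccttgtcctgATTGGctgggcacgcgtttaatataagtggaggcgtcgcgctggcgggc
TAPBP, chr6:33314079-33314328, minus strand: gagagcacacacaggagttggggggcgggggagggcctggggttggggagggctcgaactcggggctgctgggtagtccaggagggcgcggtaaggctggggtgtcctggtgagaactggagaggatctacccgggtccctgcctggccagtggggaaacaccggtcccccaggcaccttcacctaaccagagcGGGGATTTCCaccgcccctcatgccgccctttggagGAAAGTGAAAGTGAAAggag

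HLA-B and HLA-C had TGACG followed 25 bases later by ATTGG, counted from first base to first base, and B2M had the same pair 26 bases apart. Such a pair on 1 strand, 15 to 45 bases apart, stood in 3 of the 7 windows of these genes and in 0.484% of 35116 RefSeq windows of 250 bases. HLA-F had the ATTGG core 82 bases before its start but no TGACG. The interferon response type repeat was found in 5 of the 7 windows (HLA-F, B2M, TAP1, TAP2 and TAPBP) against 3.02% of all windows, and the NF-kB type motif in 4 of 7 (HLA-B, B2M, TAP1 and TAPBP) against 5.07%. TGACG alone was in 4 of 7 and 21.2% of all windows, and ATTGG alone in 5 of 7 and 32.0%. Over these windows HLA-B was 89.0% identical to HLA-C and 80.4% to HLA-F, whereas it was 49.5% identical to B2M and 47.7% to TAPBP. The windows held 10 CpG sites for TAPBP, 13 for HLA-F, 15 for HLA-C, 16 for TAP1, 17 for HLA-B, 18 for B2M and 19 for TAP2, against a median of 11 (quartiles 3 and 23) over all windows. The motifs were picked as known elements of class I promoters, so higher shares than in all windows are no independent finding. HLA-B and HLA-C, which both have the pair, also have similar windows. Matches are a description of letters, and binding was not measured.

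**Figure D1:**
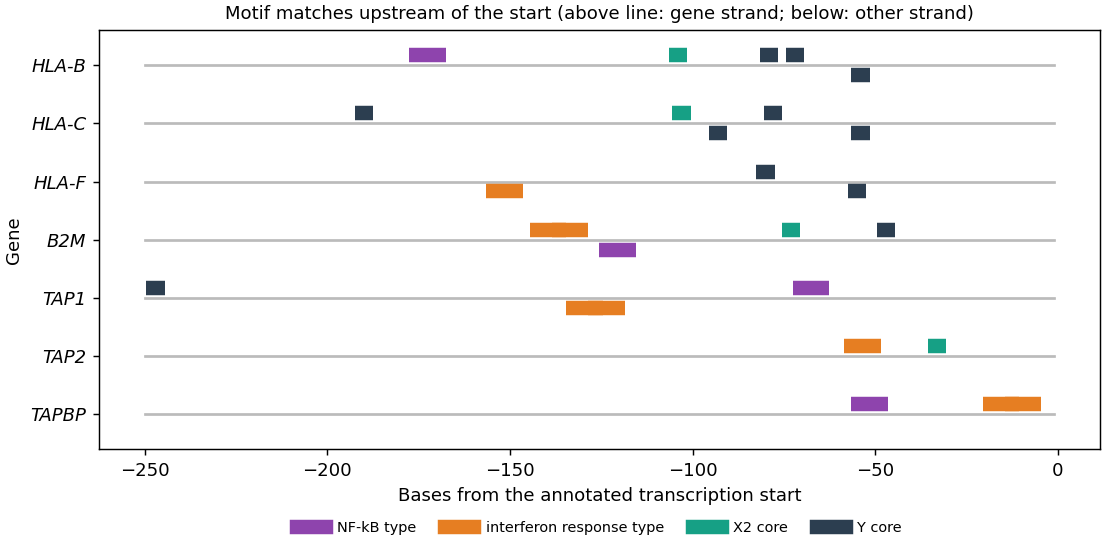
Motif matches in the 250 bases before the annotated transcription start of 7 genes, by distance from the start in bases; marks above a line lie on the gene's strand and marks below on the other. HLA-B, HLA-C and B2M show the X2 core (green) followed by a Y core (dark), and TAPBP shows the interferon response type repeat within 20 bases of its start.

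Depth per library is not given, but low values stand in whole-number steps, and the commonest ratio of group values put 1 fragment in the treated group at 0.757 times and in recovery at 1.53 times its value in control. By that measure the group values rested on 1.32 times the control's fragments for treated and 0.652 times for recovery; these are figures for groups of 2, 1 and 2 libraries in treated, recovery and control cells, not per library. Nothing says that the libraries of a group came from separate cultures, so the authors' q-values may measure technical spread, and recovery had 1 library. Of 13 genes listed as markers of this line and of embryonic kidney, 11 had an entry. Of these, 9 had q under 1 in each comparison and 0 were called. Over the 10 with a mean of 0.5 FPKM or more, median differences of log2(FPKM + 1) were -0.41 treated and -0.28 recovery minus control. Without that filter they were -0.02 and -0.26. KRT18 (418, 214 and 231 FPKM in treated, recovery and control cells), VIM (181, 246 and 316 FPKM) and CDH2 (24.4, 26.8 and 24.8 FPKM) were high in each group, while PAX2 was listed at 0.146 FPKM in treated cells and at 0 in recovery and control cells. The KRT18 entry runs from base 53290971 to 53346685, and KRT8, also listed, had no entry. Other genes of that stretch may thus share the KRT18 value. Fewer cells expressing a gene and less RNA per cell cannot be told apart in such bulk samples.

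No member was called different from control by the authors, in either comparison. Of the 8 members 7 had a q-value under 1 in each comparison of the authors' deposited table, and 0 of these had q under 0.05 for treated against control, where 1.36% of 11256 tested genes were called (1.08% higher and 0.275% lower). For recovery against control 0 of 7 passed as well, against 1.34% of 11174 tested genes (0.895% higher and 0.447% lower). NLRC5 had q = 1 in both comparisons and may not have been tested. A count of 0 among 7 is near that background. Among genes above 0 in both groups, the smallest rise that the authors called was 3.10-fold in treated and 3.62-fold in recovery cells, against largest member ratios of 2.39 and 3.20.

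**Figure D2:**
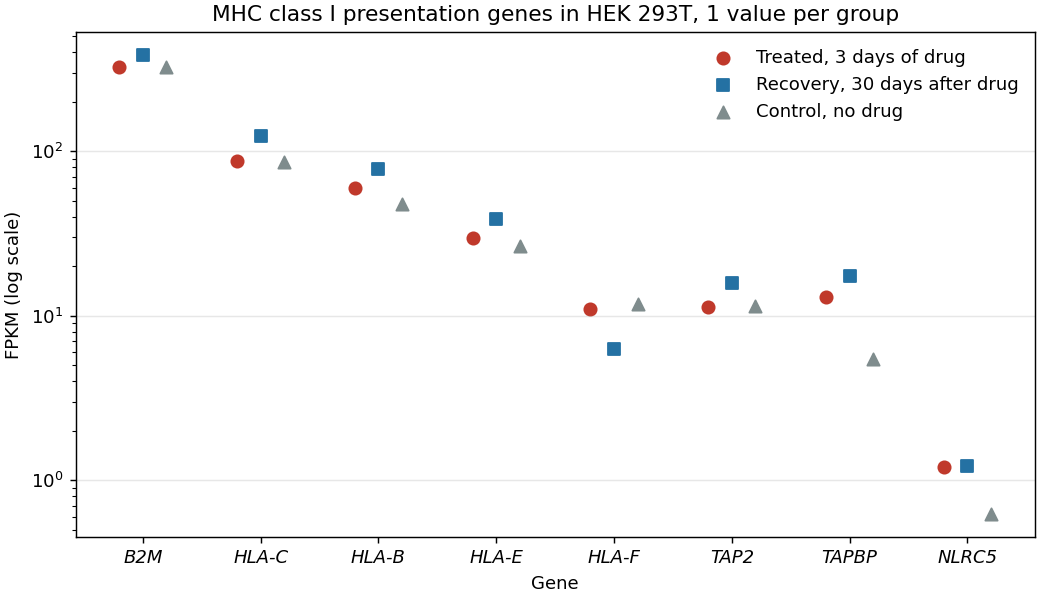
FPKM (log axis) of the 8 genes with an entry in treated cells (circles), recovery cells (squares) and control cells (triangles), 1 value per group with no error available. B2M was highest in every group, at 325, 383 and 326 FPKM in treated, recovery and control cells, and NLRC5 lowest, at 1.20, 1.22 and 0.624 FPKM.

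The classical heavy chains were well expressed without drug. HLA-C (NM_002117, chromosome 6, 31236526 to 31239913, hg19) was at 87.4 FPKM in treated, 124 FPKM in recovery and 86.3 FPKM in control cells. Treated and control cells thus differed by 1.22%, and recovery stood 1.43-fold above control (q = 0.998 for treated and 0.939 for recovery in the authors' deposited table). HLA-B (NM_005514, chromosome 6, 31321649 to 31324989) was at 60.1 FPKM in treated, 77.8 FPKM in recovery and 47.7 FPKM in control cells, which are 1.26 and 1.63 times control (q = 0.977 and 0.912 in the authors' deposited table). Both genes were highest in the recovery library. A further entry of HLA-C on an alternative chromosome 6 haplotype was listed at 0 in every group and was not used.

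Of the non-classical chains, HLA-E presents leader peptides of other class I chains to natural killer cells. HLA-E (NM_005516, chromosome 6, 30457183 to 30461982) was at 29.8 FPKM in treated, 38.6 FPKM in recovery and 26.6 FPKM in control cells, with ratios to control of 1.12 and 1.45 (q = 0.997 and 0.939 in the authors' deposited table). HLA-F is found in part as an open form without peptide. HLA-F (NM_001098478, chromosome 6, 29691117 to 29716826) was at 10.9 FPKM in treated, 6.29 FPKM in recovery and 11.8 FPKM in control cells, so that recovery was at 0.533 times control (q = 0.945 in the authors' deposited table). It was the only member of the 8 whose recovery value lay under the control value as deposited. Its entry spans 25710 bases. The antisense gene HLA-F-AS1 overlaps HLA-F in RefSeq and has no entry of its own. Whether fragments were assigned by strand is not given, so those of HLA-F-AS1 may be counted in the HLA-F value. The heavy chain genes are near copies of one another, how fragments were shared among them is not given, and the values refer to the reference alleles, so single values are uncertain.

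The 4 heavy chains summed to 188 FPKM in treated, 246 FPKM in recovery and 172 FPKM in control cells. HLA-C made up 46.4%, 50.2% and 50.1% of that sum, HLA-B 31.9%, 31.6% and 27.7%, HLA-E 15.8%, 15.7% and 15.4%, and HLA-F 5.81%, 2.55% and 6.84%, each given for treated, recovery and control cells. The share of HLA-F was lowest in recovery. B2M (NM_004048, chromosome 15, 45003685 to 45010357), the light chain, was at 325 FPKM in treated, 383 FPKM in recovery and 326 FPKM in control cells, higher than 98.5% of entries above 0 in control. Treated cells differed from control by -0.334% (q = 0.998 in the authors' deposited table), and recovery was 1.17-fold above control (q = 0.992 in the authors' deposited table), a direction that turned when groups were scaled to equal sums (log2 difference -0.04). Its level was 1.73, 1.56 and 1.89 times the heavy chain sum in treated, recovery and control cells.

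The peptide loading genes had lower levels and differed in their ratios to control. TAP2 (NM_000544, chromosome 6, 32789610 to 32806547) was at 11.3 FPKM in treated, 15.9 FPKM in recovery and 11.4 FPKM in control cells, a treated difference of -0.582% and a recovery ratio of 1.39 (q = 0.998 and 0.952 in the authors' deposited table). TAPBP (NM_003190, chromosome 6, 33267472 to 33282164) was at 13.1 FPKM in treated, 17.5 FPKM in recovery and 5.46 FPKM in control cells. These are 2.39 and 3.20 times control, the largest ratios of the 8 members, and the q-values were 0.747 for treated and 0.314 for recovery in the authors' deposited table. Among 10202 entries at 1 FPKM or more in every group, 5.33% had a treated ratio at least as high as TAPBP and 2.23% a recovery ratio at least as high. TAP2 stood at 0.867, 0.908 and 2.08 times TAPBP in treated, recovery and control cells, so their order differed between control and the other groups.

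TAPBP lies in a dense stretch of the extended MHC, and 4 other entries stood within 10 kb. RGL2, which lies 306 bases away and encodes a Ral guanine nucleotide exchange factor, was at 8.14 FPKM in treated, 7.41 FPKM in recovery and 3.40 FPKM in control cells, or 2.39 and 2.18 times control (q = 0.891 and 0.927 in the authors' deposited table). RGL2 and TAPBP overlap in RefSeq, so some fragments may be shared. DAXX, a histone chaperone, was at 26.1 FPKM in treated, 34.0 FPKM in recovery and 56.2 FPKM in control cells, and ZBTB22, which begins 17 bases past the end of the TAPBP entry, at 13.2, 14.3 and 19.2 FPKM. PFDN6, a prefoldin subunit, was at 98.9, 91.4 and 100.2 FPKM in the same order of groups. The neighbours lay on both sides of control, and 0 of 4 were called. These 4 genes were picked by position.

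**Figure D3:**
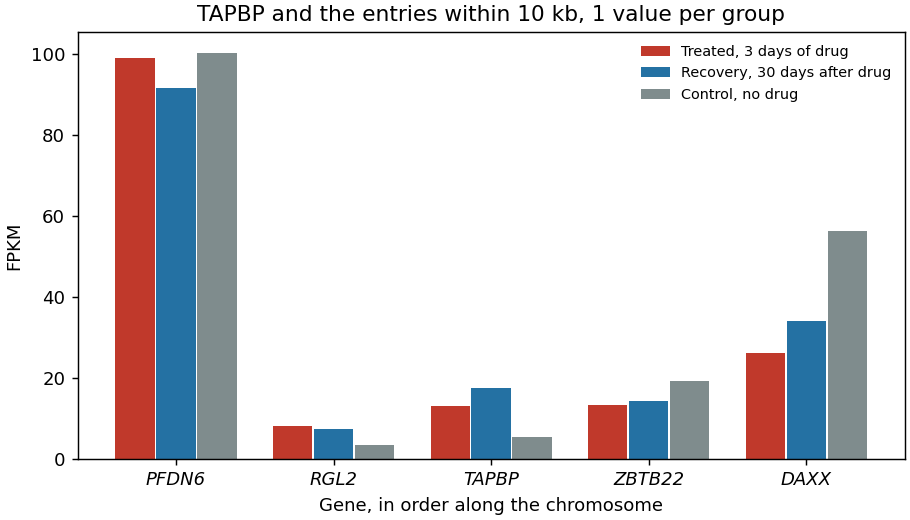
FPKM of TAPBP and the 4 entries within 10 kb of it, in order along the chromosome, for treated (left bar), recovery (middle bar) and control cells (right bar), 1 value per group. TAPBP and RGL2 lie above control in both other groups, DAXX and ZBTB22 below.

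TAP1, the partner of TAP2, has no value here. PSMB8, the noncoding PSMB8-AS1 and TAP1 follow each other and overlap in RefSeq, and the table holds 1 entry of 13255 bases there (NR_037173, an identifier of PSMB8-AS1; chromosome 6, 32808494 to 32821748, hg19). It was listed at 0 FPKM in treated, recovery and control cells (both q-values were 1 in the authors' deposited table), although the authors also mark it High_expression and mark it as affected in DNA methylation, in columns headed SOM that the sources used here do not explain. A High_expression mark on an entry at 0 in every group was found in 42 of 4706 such entries, so this 0 cannot be read as absence of TAP1. The methylation mark stood on 0 of the 8 members with an entry and on 14.1% of all entries. PSMB9, an immunoproteasome subunit whose start faces that of TAP1 at 488 bases in RefSeq, was at 1.98 FPKM in treated, 2.01 FPKM in recovery and 0.656 FPKM in control cells. Those values stand in the ratio of 4, 2 and 1 fragments, or multiples of these, and its q-values in the authors' deposited table were 1. B2M has a gene facing it at 127 bases, PATL2, which was listed at 0 in every group.

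NLRC5 (NM_032206, chromosome 16, 57050986 to 57117436) was the lowest member, at 1.20 FPKM in treated, 1.22 FPKM in recovery and 0.624 FPKM in control cells. In control only 9.71% of entries above 0 were lower. Its ratios to control were 1.93 and 1.95, and 9.20% of the 10202 entries had a treated ratio at least as high, but those entries are at 1 FPKM or more in every group and NLRC5, under that in control, is not among them. The number of fragments behind these low values was not found by the search, which stopped at 5 control fragments, so no counting error is given. Under quantile scaling the treated difference turned to -0.05 on the log2 scale. HLA-C stood at 72.7, 101 and 138 times NLRC5 in treated, recovery and control cells.

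In the order of levels, B2M, HLA-C, HLA-B and HLA-E took the first 4 places in every group, and NLRC5 the last. Below HLA-E, control cells had HLA-F, TAP2 and TAPBP at 11.8, 11.4 and 5.46 FPKM, whereas treated cells had TAPBP, TAP2 and HLA-F at 13.1, 11.3 and 10.9 FPKM and recovery cells the same order at 17.5, 15.9 and 6.29 FPKM. Without values per library, it cannot be said which neighbours in these orders differ beyond their spread.

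The members' ratios were then set against all genes. Treated over control, 6 of the 8 ratios lay within the quartiles of the 10202 entries (0.720 and 1.31, median 0.973), 2 lay above (TAPBP and NLRC5, NLRC5 not being one of these entries) and 0 below. The members' median difference of log2(FPKM + 1) was 0.09 (-0.02 under quantile scaling), against 0.01 over 12712 entries with a mean of 0.5 FPKM or more. Recovery over control, 6 of 8 lay above the upper quartile of 1.30 (TAPBP, NLRC5, HLA-B, HLA-E, HLA-C and TAP2), B2M lay within the quartiles and HLA-F below the lower one of 0.750. The members' median difference there was 0.48, against 0.00 over all. Recovery minus treated, the median was 0.37, but -0.07 with groups scaled to equal sums, and the comparison has no q-value; recovery and treated are both set against the same control libraries. HLA-B, HLA-C, HLA-E and TAP2 had recovery ratios between 1.39 and 1.63, a size that 13.4% to 20.4% of entries matched or passed, and the recovery group was 1 library.

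**Figure D4:**
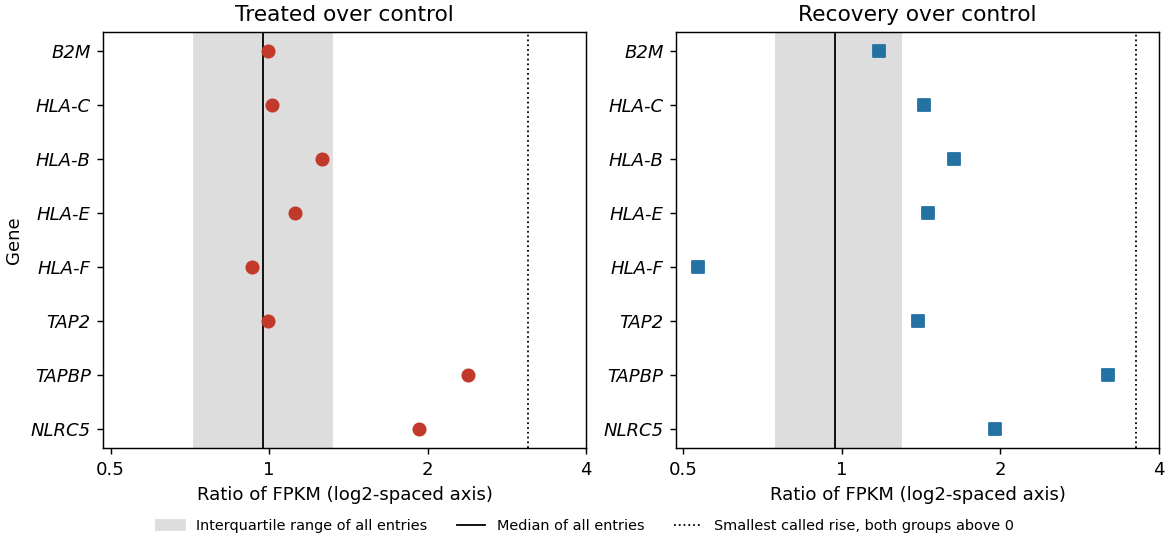
Ratio of FPKM (log2-spaced axis) of each gene, treated over control (left) and recovery over control (right); the grey band spans the quartiles of 10202 entries, the solid line is their median and the dotted line the smallest rise the authors called among genes above 0 in both groups. In treated cells TAPBP and NLRC5 lie outside the band; in recovery 6 genes lie above it and HLA-F below it; NLRC5 in the left panel turned below control (-0.05, log2) under quantile scaling.

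The rest of the pathway was read from lists. Proteasomes cut the peptides, and an interferon-inducible form replaces the catalytic subunits. Of 6 genes of that form and its activator 5 had an entry and 0 were called in either comparison (median difference of log2(FPKM + 1) of -0.01 treated and -0.14 recovery minus control). The activator subunit PSME2 was at 43.9 FPKM in treated, 81.3 FPKM in recovery and 30.9 FPKM in control cells (q = 0.568 for recovery in the authors' deposited table), while its partner PSME1 was at 73.0, 97.6 and 108 FPKM. The assembly factor POMP was at 70.0, 58.6 and 70.4 FPKM. Of the constitutive proteasome core, 14 of 15 genes had an entry, all between 27.9 and 303 FPKM, with 0 calls and medians of 0.23 and 0.11. PSMA1 (249, 252 and 248 FPKM) and PSMB1 (285, 303 and 239 FPKM) were the most abundant together with PSMB3, at 272, 245 and 213 FPKM. The widest treated differences there were PSME3, a nuclear activator, at 43.8, 28.0 and 28.3 FPKM, and PSMA3 at 179, 106 and 124 FPKM.

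Of 16 genes for peptide loading, folding and trimming 14 had an entry, 0 were called, and the medians were 0.10 treated and 0.17 recovery minus control. The chaperones CALR and CANX bind class I heavy chains in the reticulum. CALR was at 391, 306 and 295 FPKM in treated, recovery and control cells, and CANX at 278, 266 and 235 FPKM. BCAP31, an export receptor of the reticulum that binds class I, was at 210 FPKM in treated, 174 FPKM in recovery and 92.5 FPKM in control cells, 2.27 and 1.88 times control, without a call (q = 0.246 and 0.659 in the authors' deposited table). BLMH, a cytosolic aminopeptidase, was at 19.3, 18.2 and 10.7 FPKM. TAPBPL, the tapasin-related TAPBPR, was at 0.173 FPKM in treated and 3.16 FPKM in recovery cells and was listed at 0 in control; it was named after its values were seen.

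Among 22 measured regulators of class I genes and of interferon gamma signalling (23 listed), 0 were called. Medians over the 21 with a mean of 0.5 FPKM or more were -0.02 treated and 0.08 recovery minus control. Without that filter they were 0.02 and 0.09. The RFX complex, which carries NLRC5 to the X box, stood at under 0.5 times control in treated cells in all 3 subunits, without a call, and below control under every scaling tried. RFX5 was at 21.2 FPKM in treated, 34.6 FPKM in recovery and 43.9 FPKM in control cells (0.483 and 0.790 times control; q = 0.528 and 0.968 in the authors' deposited table), RFXANK at 22.2, 42.6 and 44.5 FPKM and RFXAP, named after its values were seen, at 3.36, 6.71 and 8.11 FPKM. The RFXANK entry spans 57863 bases, so other genes of that stretch may share it. RELA, the NF-kB subunit p65, was at 28.8 FPKM in treated, 14.7 FPKM in recovery and 9.55 FPKM in control cells (q = 0.283 for treated in the authors' deposited table), and the coactivator CREBBP at 15.5, 8.89 and 6.63 FPKM. EZH2, the H3K27 methyltransferase known to repress class I genes in some tumours, was at 27.5, 26.2 and 40.4 FPKM.

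Of 23 other class I and class I-like chains 21 had an entry. The neonatal Fc receptor FCGRT, which also pairs with beta-2-microglobulin, was at 13.5 FPKM in treated, 30.0 FPKM in recovery and 58.4 FPKM in control cells, and the q-values were 0.0814 for treated and 0.749 for recovery in the authors' deposited table. PROCR, the endothelial protein C receptor, was at 36.8, 28.3 and 28.6 FPKM. ULBP2, a ligand of the natural killer receptor NKG2D, was the only gene of that list called: it was at 5.26 FPKM in treated and 5.45 FPKM in recovery cells and listed at 0 in control (q = 0.0147 and 0.0239 in the authors' deposited table). Since the TAP1 stretch is also listed at 0, no fold is given against such a control. Of the 21 genes, 11 had q under 1 for treated and 9 for recovery. The share called over all tested genes was 1.36% for treated and 1.34% for recovery. Over the 12 with a mean of 0.5 FPKM or more, list medians were 0.44 treated and 0.18 recovery minus control. Without that filter both medians were 0.

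Genes of class II presentation mark professional antigen-presenting cells. Of 14 listed 13 had an entry, and their FPKM summed to 35.8 in treated, 33.9 in recovery and 53.0 in control cells, with medians of -0.71 and -0.11. HLA-DRA, the alpha chain of HLA-DR, was listed at 0 in each group, and the class II transactivator CIITA at 0.106 FPKM in treated and at 0 in recovery and control cells. HLA-DMB, a peptide exchange chain, was called higher in treated cells, at 11.6 FPKM in treated and 1.19 FPKM in recovery cells against a control listed at 0 (q = 0.0147 and 1 in the authors' deposited table). HLA-DQB1 was at 4.28, 6.90 and 22.8 FPKM, HLA-DRB1 at 3.12, 7.17 and 8.24 FPKM, HLA-DPB1 at 3.18, 5.56 and 5.81 FPKM, and HLA-DOB at 0.239, 0.485 and 4.58 FPKM, in treated, recovery and control cells. Of 20 blood cell markers, 6, 14 and 18 were listed at 0 in treated, recovery and control cells, and the 20 summed to 12.9, 2.24 and 1.19 FPKM. The leukocyte marker PTPRC was at 0.413 FPKM in treated cells and 0 in both others. LAPTM5 was at 2.06, 0.835 and 0 FPKM and CD3G at 1.64, 0 and 0 FPKM. Of the 20, 0 were called, but only 2 had q under 1 for treated and 0 for recovery. The part of such markers in the members' values was not tested.

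**Figure D5:**
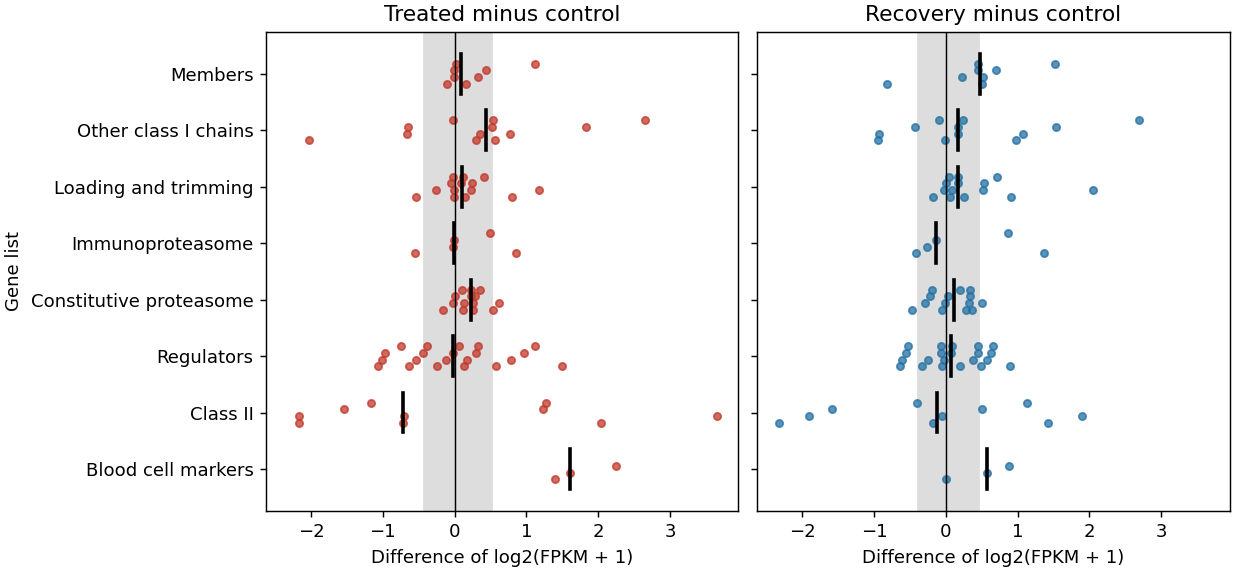
Difference of log2(FPKM + 1) of each gene with a mean of 0.5 FPKM or more, by list, treated minus control (left) and recovery minus control (right); black ticks are list medians and the grey band spans the quartiles of 12712 entries. The members' median is 0.09 in the left panel (-0.02 under quantile scaling) and 0.48 in the right, and the regulators lie on both sides of 0 in each.

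The genes whose levels ran most like the members' median across the 3 groups were THAP6 (4.77, 6.64 and 4.44 FPKM in treated, recovery and control cells), HSD17B1 (5.87, 7.97 and 5.47 FPKM) and SRPK2 (27.4, 36.7 and 25.9 FPKM), by distance between pairs of log2 differences. With 3 groups such likeness is common: 95 of 9715 protein-coding candidates lay within 0.1 of the members' median.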

How the data were processed

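After ribosomal RNA removal, strand-marked (dU) libraries were prepared, per the labels. The submitters' processing notes name Cufflinks and Cuffdiff, without versions, and the builds hg19 and mm9; human coordinates are taken as hg19 and printed 1-based. Aligner, annotation and strand setting: not given in the sources used here. Per the file headers, the tables hold FPKM values, 1 per gene for each group, and the authors' q-values (adjusted p-values) for treated and for recovery against control. Of 20221 RefSeq entries 1 was damaged and left out, and 19665 of 20220 matched a symbol in the RefSeq gene table, whose assembly is GRCh38.p14 and which gave names and gene order. The lncRNA table (21625 of 21627 rows usable) served for neighbouring loci.

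Python 3.11.15 with pandas 2.3.3 and NumPy 2.4.6 computed ratios, differences of log2(FPKM + 1), which understate changes of low genes, and the share of entries beyond each ratio. Only the authors' q-values test a gene; no further test was run, since group values leave no spread. Background shares are of genes with q under 1. The value of 1 fragment was read as the commonest ratio of group values, and whole numbers were searched up to 5 control fragments with a tolerance of 0.02; the step was checked on simulated data. Alternatives were other pseudocounts, scalings, filters and a q threshold of 0.10. Genes named outside the members were, in each list, those the authors called, the 3 of highest mean FPKM and the 2 of largest treated difference, beside genes near or facing a member and those stated to be named later; some listed genes are not reported here. The members, lists and motifs were chosen with earlier results of these data known. Promoter identity is from a global alignment (Biopython), counted over alignment columns.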

Additional observations from a re-analysis of the deposited data

Results flagged for a closer look

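Beside HLA-F, 2 loci of the authors' lncRNA table, which the comparisons do not use, were above 0 in treated cells and listed at 0 in recovery and control cells. The first (TCONS_l2_00024693), 2186 bases from the HLA-F entry, was at 3.78 FPKM in treated cells. The second (TCONS_l2_00025363), 1758 bases past HLA-F, was at 23.1 FPKM in treated cells. This second locus of 341 bases coincides with the pseudogene IFITM4P, which the RefSeq table lists at 0.986 FPKM in treated cells and at 0 in recovery and control cells, so the lncRNA table gave the same place a value 23.4 times as high, and levels cannot be set across the tables. The IFITM4P q-values in the authors' deposited table were 1.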

How the results depend on the processing

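No paired analysis was possible because the replicates of each group were deposited as 1 combined value, and for the same reason no library could be left out. With 1 value per group, a value was counted as moved when it changed by over 1.5-fold. The members' median log2 difference ranged from -0.02 to 0.26 for treated minus control, from 0.25 to 0.53 for recovery minus control and from -0.07 to 0.37 for recovery minus treated. Quantile scaling gave the -0.02, and equal sums without the 10 highest entries gave the -0.07. That last scaling put the median log2 ratio of all entries at 0.12 for treated and -0.29 for recovery over control, against -0.04 for both as deposited. Directions of small differences depend on scaling: 5 of 8 members lay above control in treated cells as deposited, 7 after median ratio scaling, 4 after quantile scaling and 8 with equal sums; in recovery it was 7, 7, 7 and 6. TAPBP (1.08 to 1.28 treated, 1.26 to 1.68 recovery), HLA-B, HLA-C and HLA-E stayed above control in recovery, and HLA-F (-1.05 to -0.77) below it, under these alternatives. NLRC5 ranged from -0.05 to 0.95 in treated cells. At q under 0.10 the members still had 0 calls, and the other class I chains had 2 in treated cells, FCGRT being the added gene; the blood markers had 1, LAPTM5. Of the 3 genes most like the members 1 was the same with a pseudocount of 0.1. The class II median was 0.00 with no filter in treated cells.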

Other observations

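Among entries near a member, CPNE2, a copine that binds membranes in a calcium-dependent way, which begins 9018 bases past the NLRC5 entry, was at 12.0 FPKM in treated, 9.75 FPKM in recovery and 3.18 FPKM in control cells, 3.78 and 3.07 times control, with q = 0.796 and 0.884 in the authors' deposited table. MICA, a stress-induced NKG2D ligand between HLA-B and MICB, was at 10.4 FPKM in treated, 12.1 FPKM in recovery and 5.65 FPKM in control cells, without a call (q = 0.947 and 0.939 in the authors' deposited table). MICB, its near copy, was at 11.0, 12.8 and 11.3 FPKM in treated, recovery and control cells. CD74, the invariant chain of class II, was at 3.81 FPKM in treated, 3.34 FPKM in recovery and 0.168 FPKM in control cells (q = 0.939 for both in the authors' deposited table). These genes were named after their values were seen.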
